A study of Rattus norvegicus with 12 samples.

Results

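Pan-reactive astrocyte genes are genes whose transcripts increase in astrocytes after different kinds of injury, whichever reactive subtype follows. The genes described here are 7 of the genes that were treated as pan-reactive for these cultures, *Timp1*, *Hsbp1*, *Lcn2*, *Cd44*, *Osmr*, *S1pr3* and *Cxcl10*. An identifier in the count table could be paired with 6 of the 7, out of 17941 genes in the table, and *Cxcl10* was not analysed here.

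The samples were 12 cultures of primary astrocytes (ASTRs) of young adult female Wistar rats, 6 of gmASTRs and 6 of wmASTRs, and the comparison asked how astrocytes of grey and white matter regions differ. The gmASTRs came from the cerebral cortex after removal of the meninges. The wmASTRs came from the non-cortical remainder without the amygdala, which held white matter tracts together with hippocampus, thalamus and basal ganglia, so that deep gmASTRs were among them. Cells of both groups were kept in serum-containing medium for 20 days and were passaged with trypsin. No treatment, transgene or deletion is named for either group, and each preparation of an animal gave cultures of both regions.

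*Timp1* encodes a secreted inhibitor of metalloproteinases, and *Lcn2* encodes lipocalin 2, a secreted carrier of iron-binding siderophores. *Cd44* encodes a surface receptor for hyaluronan and osteopontin, *Osmr* the oncostatin M receptor that signals with gp130 through JAK and STAT3, and *S1pr3* a G protein-coupled receptor for sphingosine-1-phosphate. In injured brain, astrocytes make several of these products in response to cytokines and to contact with blood, and the set therefore serves as a general sign of reactivity. *Hsbp1* is the symbol given for the row used here (ENSRNOG00000023546). RefSeq lists *Hsbp1*, which encodes heat shock factor binding protein 1, and *Hspb1*, which encodes a small heat shock protein and is the usual member of pan-reactive sets, as separate genes with the shared synonym Hsp25. Which of them the row counts could not be settled here, and *Hsbp1* is used below only as the name of that row.

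The stretches upstream of the start were read for motifs of factors that act on such genes, in the RefSeq promoter table (GRCr8, 250 bases before the start, both strands). The motifs were TTCNNNGAA for STAT, TGA and TCA around any base for AP-1, GAANNTTC for a heat shock element and the NF-kB motif by its name, and none of them overlapped another in these stretches. All 6 symbols were found in the table. Shown are the members with a match, and for the heat shock pair both candidates, because they differ in it. Each stretch is written 5′ to 3′ on the strand of the gene with the match in capitals. They are chr3:36081931-36082030 (minus strand) for *Lcn2*, chr2:57688562-57688661 (minus strand) for *Osmr*, chr12:26432352-26432451 (minus strand) for *Hspb1* and chr19:64309553-64309652 (plus strand) for *Hsbp1*.
Lcn2: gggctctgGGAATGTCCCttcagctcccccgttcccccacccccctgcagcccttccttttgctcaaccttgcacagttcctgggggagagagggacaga
Osmr: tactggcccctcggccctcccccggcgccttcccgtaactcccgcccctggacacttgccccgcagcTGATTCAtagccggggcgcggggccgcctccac
Hspb1: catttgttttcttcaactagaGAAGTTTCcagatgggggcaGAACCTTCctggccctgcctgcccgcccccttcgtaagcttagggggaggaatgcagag
Hsbp1: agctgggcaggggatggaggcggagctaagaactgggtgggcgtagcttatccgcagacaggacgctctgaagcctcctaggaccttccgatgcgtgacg

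The *Lcn2* stretch held the NF-kB motif, read on the opposite strand, from 242 to 233 bases before the start. A match to this motif was present in 3.54% of the 33469 windows of the table. The *Osmr* stretch held the AP-1 motif from 33 to 27 bases before the start, as did 6.34% of windows at any place. The *Hspb1* stretch held a heat shock element from 129 to 122 and another from 109 to 102 bases before the start, while *Hsbp1* held none, and 7.23% of windows held at least 1. No STAT motif (7.67% of windows) was found for any member, and *Timp1*, *Cd44* and *S1pr3* had no match to any of the 4 motifs. A match is a description of letters and not of a site in use, and the absence of a match says only that these letters are not in this window.

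Libraries held between 4920488 and 7207118 counted reads, so that 3 counts, taken as the floor, correspond to 0.416 to 0.610 CPM, which are the reads of a gene per 1000000 counted reads of its library. The libraries read the 3′ ends of transcripts, and no order of levels between genes is given. No pair of libraries held the same counts. Of 15 astrocyte markers 7 had a name in the table, and they summed to 4568 to 7732 CPM in gmASTRs and 6421 to 8600 CPM in wmASTRs. Most of this was *Gja1*, the connexin 43 gene, and *Mfge8*. *Aqp4*, the water channel of astrocyte endfeet, was at 0 counts in 4 of 6 gmASTR libraries and at 3.69 ± 1.30 CPM (SD, n = 6) in wmASTRs. Of the 7 astrocyte markers, 3 were called higher in wmASTRs and 4 were not called, and among the latter *Gja1*, *Aldoc* and *Fgfr3* had a higher mean in gmASTRs. Named markers of microglia and macrophages (9 of 18) summed to 16.8 to 79.3 CPM in gmASTRs and 126 to 440 CPM in wmASTRs without overlap. Those of pericytes and smooth muscle cells (3 of 12) summed to 64.0 to 192 CPM and 424 to 1142 CPM, again without overlap. *Ttr*, the 1 named of 10 choroid plexus markers, ranged from 0 to 3.98 CPM and from 4.65 to 376 CPM, highest in wmASTR replicate 1, and endothelial markers (4 of 13) summed to 16.4 to 77.3 CPM and 38.9 to 316 CPM, highest in wmASTR replicate 4. Markers of fibroblasts (5 of 15), at 1404 to 2668 CPM and 879 to 1515 CPM, and of the oligodendrocyte lineage (5 of 13, mostly *Cldn11*), at 113 to 3786 CPM and 16.0 to 109 CPM, had the higher sums in gmASTRs. *Rarres2*, the 1 named of 8 ependymal markers, was at 28.8 to 72.3 CPM in gmASTRs and 12.7 to 33.1 CPM in wmASTRs, with overlap. It was called higher in gmASTRs (edgeR adjusted p = 0.0168). No named marker was at 0 in all libraries, and wmASTR replicate 4 had the highest sum of the microglial and the pericyte lists. In bulk RNA, more cells of a type and more RNA per cell cannot be told apart, and the part of these markers in the results below was not tested.

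All 6 genes had a higher mean in wmASTRs than in gmASTRs. The call rested on edgeR's quasi-likelihood test with Benjamini-Hochberg adjustment over the 15478 genes with at least 1 count, at an FDR of 0.05, and log2 fold changes (log2FC) are of gmASTRs over wmASTRs, so that negative values mean a higher level in wmASTRs. *Timp1*, *Hsbp1* and *Lcn2* were called, all 3 higher in wmASTRs, whereas *S1pr3*, *Cd44* and *Osmr* were not. Over all genes tested, 7.73% were called, 4.28% higher in wmASTRs and 3.46% higher in gmASTRs. In the filtered table of the authors, which holds 5 of the members, 6.69% of genes were called higher in wmASTRs. At an FDR of 0.01, 2 members were called (*Timp1* and *Hsbp1*), against 4.18% of all genes in either direction. The median log2FC of the 6 genes was -0.96, and that of all genes tested was -0.026. Of all genes, 51.8% had a log2FC below 0. With wmASTR replicate 4 left out, 2 of the 6 members were called, against 3.53% of genes called higher in wmASTRs.

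**Figure D1:**
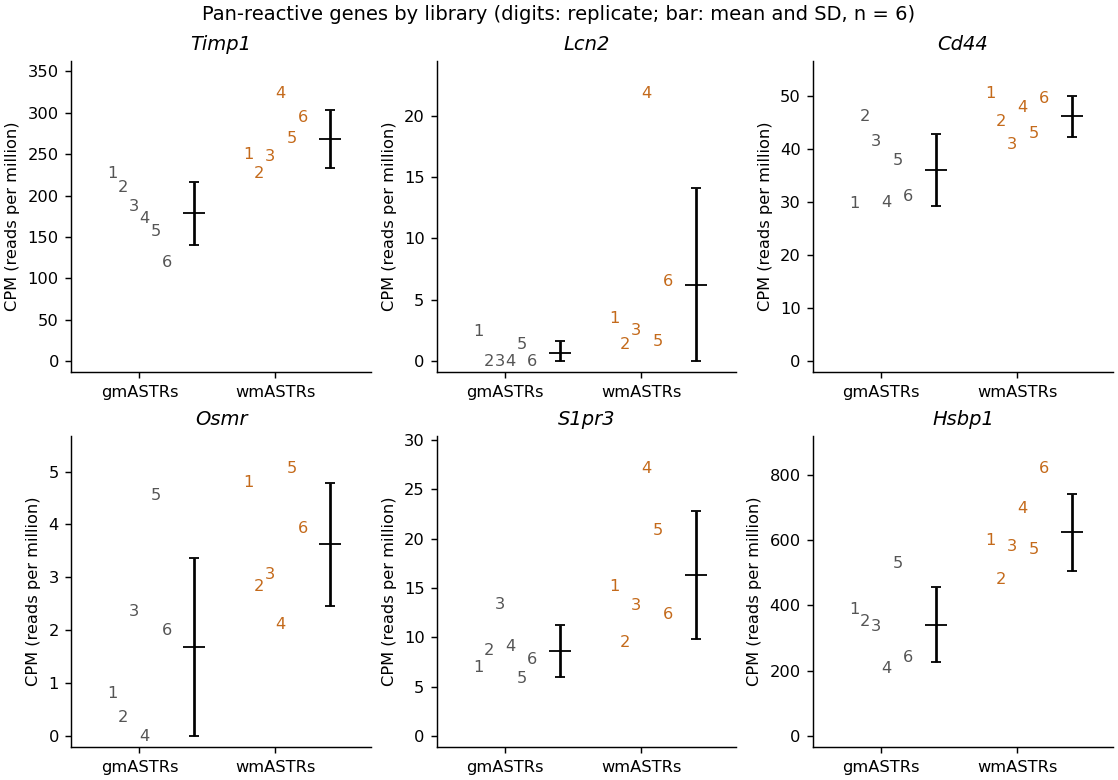
CPM of each pan-reactive gene (vertical axes, linear, a separate scale for each gene) in the 6 gmASTR and the 6 wmASTR libraries. Digits are replicate numbers, and bars are the mean with the SD (n = 6), drawn down to 0 at most. Only *Timp1* had no overlap between the groups, and wmASTR replicate 4 stands far above the others for *Lcn2* at 21.8 CPM.

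*Timp1* (ENSRNOG00000010208) ranged from 119 CPM through a median of 180 CPM to 226 CPM in gmASTRs. In wmASTRs it ranged from 227 CPM through a median of 259 CPM to 324 CPM. The lowest wmASTR library lay just above the highest gmASTR library, and *Timp1* was the only member whose groups did not overlap, where 2.2% of all genes tested had every wmASTR library above every gmASTR library and 3.99% had no overlap in either direction. The means were 179 ± 38.4 CPM and 268 ± 35.4 CPM (SD, n = 6 each), from 718 to 1857 counts a library. The log2FC was -0.65 (SE 0.14, 95% interval -0.95 to -0.36, edgeR adjusted p = 0.00369), which is 1.57-fold higher in wmASTRs (95% interval 1.28 to 1.93). The exact permutation test on log2(CPM + 1), two-sided, gave p = 0.00216, the smallest value that 6 against 6 libraries allow. The spread among gmASTR libraries, a coefficient of variation of 21.5%, stood beside 3.18% expected from counting alone. The call was kept with each of the 12 libraries left out in turn, with adjusted p from 0.00159 to 0.0117 (edgeR).

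*Lcn2* (ENSRNOG00000013973) was near the floor in gmASTRs. It had 0 counts in gmASTR replicates 2, 3, 4 and 6, where 3 counts would be 0.472 to 0.580 CPM, and 12 and 7 counts in replicates 1 and 5. In wmASTRs it was detected in every library, from 1.33 CPM through a median of 3.00 CPM to 21.8 CPM (8 to 124 counts). The wmASTR libraries were thus mostly higher but low throughout, and 1 gmASTR library (replicate 1, 2.44 CPM) lay above the lowest of them. The log2FC was -3.35 (SE 1.05, 95% interval -5.51 to -1.19), and the adjusted p of 0.0492 (edgeR) was just under the threshold. The exact permutation test on log2(CPM + 1), two-sided, gave p = 0.00866. Much of the mean of 6.21 ± 7.88 CPM (SD, n = 6) came from wmASTR replicate 4, without which it was 3.09 ± 2.10 CPM (SD, n = 5) against 0.628 ± 1.03 CPM (SD, n = 6) in gmASTRs. Without that library the log2FC was -2.32 and the gene was not called (edgeR adjusted p = 0.258). It was called in 5 of the 12 fits that left out 1 library, and not when wmASTR replicates 1 or 6 or gmASTR replicates 2, 3, 4 or 6 were left out (adjusted p 0.0540 to 0.0875, edgeR). The same wmASTR replicate 4 held the highest summed microglial markers (440 CPM, against 126 to 187 CPM in the other wmASTR libraries), and whether these had a part in its *Lcn2* level was not tested.

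*Cd44* (ENSRNOG00000006094) was measured at 29.7 CPM, 34.4 CPM and 46.1 CPM (lowest, median and highest) in gmASTRs. The corresponding values in wmASTRs were 40.8 CPM, 46.5 CPM and 50.5 CPM. The wmASTR libraries lay close together, while gmASTR replicates 2 and 3 reached into their range. The means were 36.0 ± 6.85 CPM and 46.1 ± 3.78 CPM (SD, n = 6 each), a log2FC of -0.42 (SE 0.17, 95% interval -0.77 to -0.07). It was not called after adjustment (edgeR adjusted p = 0.138, unadjusted p = 0.0208), and no fit with a library left out called it. The exact permutation test on log2(CPM + 1), two-sided, gave p = 0.0152. The interval reaches 1.71-fold higher in wmASTRs at most, so that a difference of the size seen for *Hsbp1* lies outside it.

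*Osmr* (ENSRNOG00000033192) was measured at 0 to 24 counts in gmASTRs and 12 to 35 counts in wmASTRs. In gmASTRs the lowest, median and highest values were 0, 1.40 and 4.55 CPM, and in wmASTRs 2.11, 3.48 and 5.06 CPM. The groups overlapped, with gmASTR replicates 3 and 5 inside the wmASTR range and replicate 4 without a count. The log2FC was -1.14 (SE 0.83) with a 95% interval from -2.84 to 0.56, which includes no difference (edgeR adjusted p = 0.434). The exact permutation test on log2(CPM + 1), two-sided, gave p = 0.0346, but this exact p lay between 0.0563 and 0.0736 with any of 6 of the 12 libraries left out (gmASTR replicates 1, 2 and 4 and wmASTR replicates 1, 5 and 6). Without gmASTR replicate 5 the log2FC was -1.77 and the gene was still not called (edgeR adjusted p = 0.211). The coefficient of variation in gmASTRs was 100.3%, beside 32.4% expected from counting alone, and a difference in *Osmr* was not detectable across all genes tested.

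*S1pr3* (ENSRNOG00000014524) ranged in gmASTRs from 5.87 CPM through 8.24 CPM, the median, to 13.4 CPM. In wmASTRs its range was 9.48 CPM to 27.1 CPM with a median of 14.1 CPM. All but 1 gmASTR library (replicate 3) were below the lowest wmASTR library, and wmASTR replicates 4 and 5 were the highest. The means were 8.62 ± 2.60 CPM and 16.3 ± 6.49 CPM (SD, n = 6 each), and the log2FC was -0.99 (SE 0.33, 95% interval -1.66 to -0.32). The adjusted p of 0.0618 (edgeR) missed the threshold, and the exact permutation test on log2(CPM + 1), two-sided, gave p = 0.0108. The call depended on the libraries, since the gene was called without gmASTR replicate 3 (adjusted p = 0.0391) and without wmASTR replicate 2 (adjusted p = 0.0403, both edgeR), and had an adjusted p of 0.185 without wmASTR replicate 4. It was called when genes with low counts were removed before the test and by DESeq2, but not by limma-voom.

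The row named *Hsbp1* had the smallest adjusted p of the 6. Its values in gmASTRs were 207, 342 and 529 CPM (lowest, median and highest), and in wmASTRs 479, 588 and 819 CPM, from 1069 to 4394 counts a library. Only gmASTR replicate 5, at 529 CPM, overlapped with the wmASTR libraries, of which replicate 2 was the lowest. The means were 341 ± 115 CPM and 624 ± 118 CPM (SD, n = 6 each), and the log2FC was -0.92 (SE 0.18, 95% interval -1.30 to -0.54, edgeR adjusted p = 0.00158), which is 1.90-fold higher in wmASTRs. The exact permutation test on log2(CPM + 1), two-sided, gave p = 0.00433. The call was kept with each library left out in turn, and without gmASTR replicate 5 the log2FC was -1.12. The 6 permutation tests are given without adjustment for their number.

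**Figure D2:**
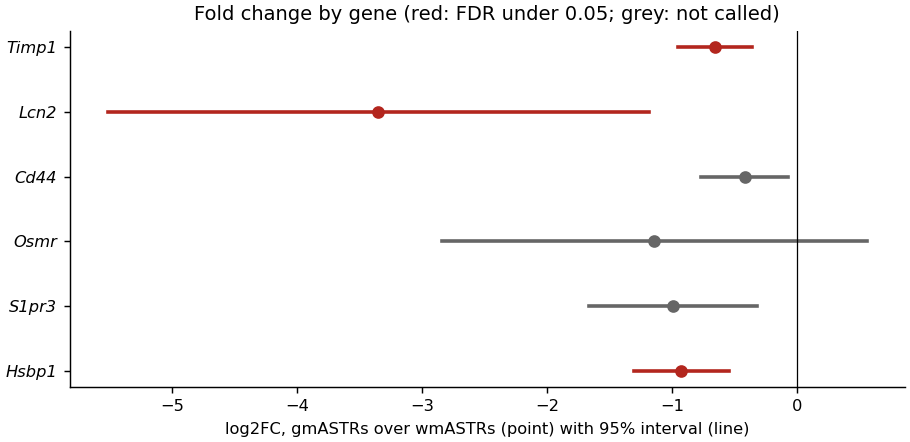
log2FC of gmASTRs over wmASTRs (horizontal axis) for each pan-reactive gene, with points for the estimates and lines for the 95% intervals of the quasi-likelihood fit. All 6 estimates are below 0, and only the interval of *Osmr* (-2.84 to 0.56) includes 0.

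The size of the estimates did not follow the strength of the evidence. *Lcn2* had the largest log2FC and the widest interval, whereas *Timp1*, with a smaller log2FC than all but *Cd44*, had the second smallest adjusted p. The 3 genes with a mean of at least 20 CPM in both groups were *Timp1*, *Hsbp1* and *Cd44*, and 2 of them were called, where 8.9% of the genes with a mean of at least 20 CPM were called higher in wmASTRs. The biological coefficient of variation that edgeR fitted was 19.7% for *Timp1*, 21.6% for *Cd44* and 24.8% for *Hsbp1*, but 37.5% for *S1pr3*, 85.6% for *Osmr* and 112% for *Lcn2*. The genes with few reads were thus also the variable ones.

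**Figure D3:**
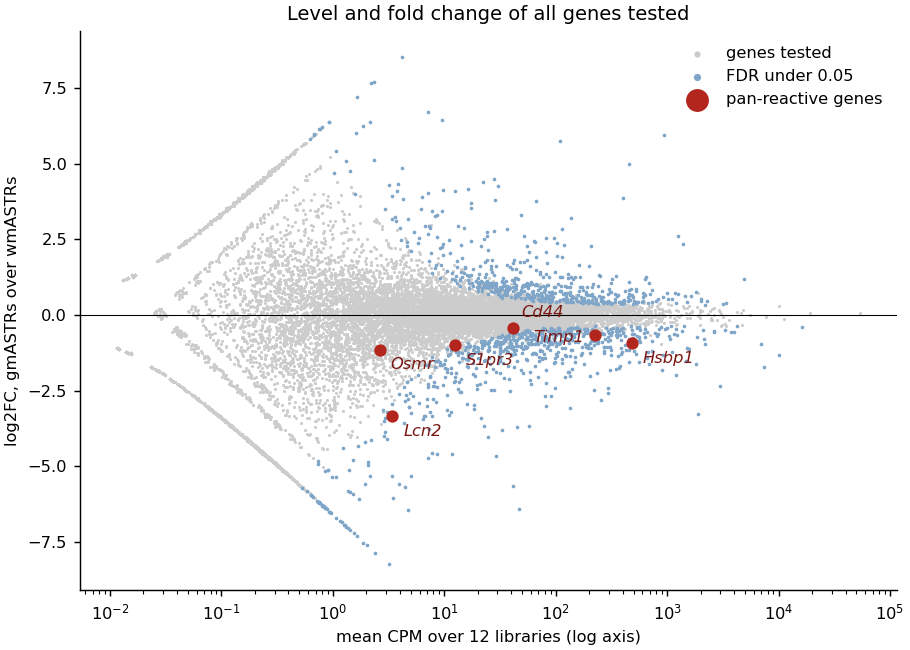
log2FC of gmASTRs over wmASTRs (vertical axis) against the mean CPM over the 12 libraries (horizontal log axis) for the 15478 genes tested. Grey points are genes not called, blue points genes with an FDR under 0.05 and red points the pan-reactive genes, of which *Osmr* and *Lcn2* lie in the range of low counts.

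The members shared some of their high and low libraries. Replicate 4 was the highest wmASTR library for *Timp1*, *Lcn2* and *S1pr3* but the lowest for *Osmr*, and replicate 6 was the highest for *Hsbp1*. Replicate 2 was the lowest wmASTR library for *Timp1*, *Hsbp1*, *Lcn2* and *S1pr3*. Among gmASTRs, replicate 5 was the highest for *Hsbp1* and *Osmr* and the lowest for *S1pr3*. For the 3 called genes, wmASTR replicates 4 and 6 were the highest libraries and replicate 2 the lowest.

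The FDR of each gene under other tests, scalings, filters and left-out libraries separated the 6 genes. *Timp1* and *Hsbp1* were called under all 20 alternatives, and *Cd44* and *Osmr* under none of 20. *S1pr3* was called under 5 of 20, and *Lcn2* under 10 of the 18 that kept the gene. The log2FC was below 0 in all 118 of these values.

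**Figure D4:**
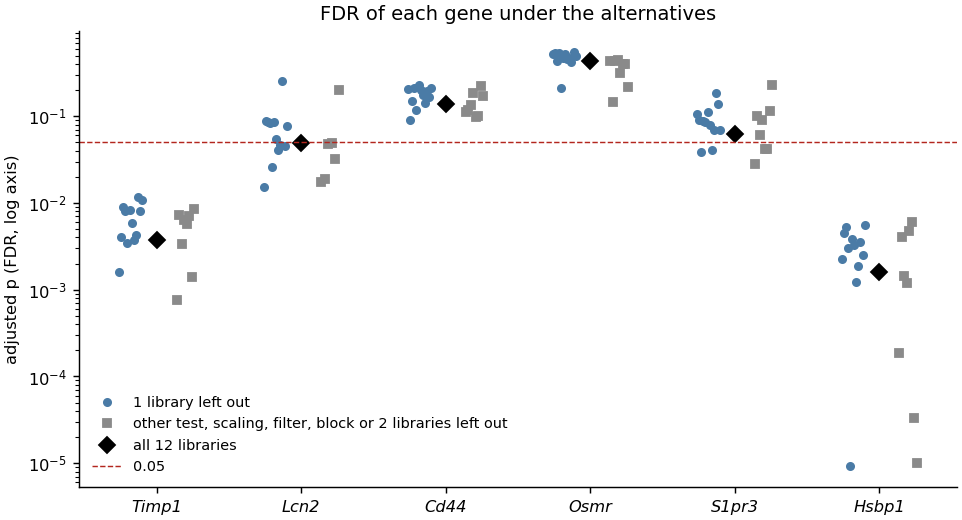
Adjusted p (FDR, vertical log axis) of each pan-reactive gene with all 12 libraries (diamonds), with 1 library left out (circles) and under the other alternatives (squares), and the threshold of 0.05 (dashed line). *Timp1* and *Hsbp1* stay below the line, *Cd44* and *Osmr* above it, and *Lcn2* and *S1pr3* lie on both sides.

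The genes with the most similar course over the 12 libraries were sought for *Timp1*, *Hsbp1* and *Cd44*, among the 707 named of 5351 genes with a mean of at least 20 CPM. The measure was the root mean square difference of centred log2 profiles, where a smaller value means a closer course. For *Timp1* these were *Dkk3* (0.257), *B4galt5* (0.270) and *Cd44* (0.287), against 0.423 for the spread of *Timp1* around its own mean. For *Hsbp1* they were *Ptgs2* (0.312), which encodes cyclooxygenase 2, *Timp1* (0.365) and *Ugt1a* (0.375), against its own spread of 0.629. For *Cd44* they were *Fyn* (0.199), *Fbln5* (0.209) and *B4galt5* (0.228), against 0.295. All of these pairs contain the difference between the groups, and between 50 and 156 of the candidate genes were closer, most of them without a name. Every gene found belongs to the 60 whose name came from matching CPM values. Of all named genes tested, 92.4% had a log2FC above 0, opposite to the members. The choice was thus limited by which genes had a name, and no shared course of reactive genes is read from it.

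Of 6 further pan-reactive genes, 4 had a name in the table and 1 was called, where 7.73% of all genes tested were called. The count was 0 in the filtered table and with filterByExpr, and 2 with DESeq2, limma-voom, the replicate block or 2 libraries left out. *Gfap*, the intermediate filament gene most used as a sign of reactivity, had 0 counts in all 6 gmASTR libraries and 8 to 60 counts (1.39 to 10.6 CPM) in wmASTRs. Taking 3 counts a library as the floor, its wmASTR mean of 3.29 CPM was at least 5.40-fold higher (edgeR adjusted p = 0.00190), and at least 3.02-fold higher without wmASTR replicate 4. The study did detect GFAP protein by Western blot, with more in wmASTRs than in gmASTRs, so 0 counts do not mean that the protein was absent. *Steap4*, a metalloreductase gene, had 1.66 ± 1.68 CPM in gmASTRs and 6.66 ± 1.42 CPM in the other group (SD, n = 6 each) without overlap, but was not called (log2FC -2.06, edgeR adjusted p = 0.104). *Cp*, the ceruloplasmin gene, had 35.7 ± 21.2 CPM and 56.2 ± 17.6 CPM (log2FC -0.70, edgeR adjusted p = 0.135). *Vim*, the vimentin gene, stood on the other side, where gmASTRs had 2884 ± 236 CPM and wmASTRs 2353 ± 96.5 CPM (log2FC 0.23, edgeR adjusted p = 0.159), again without overlap. DESeq2 and limma-voom did call *Steap4*, and limma-voom called *Vim*.

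The pathways around the members could be read only in part, because 2 to 7 genes of each list of 23 to 49 had a name. Of named genes tested, 92.4% had a log2FC above 0, against 48.2% of all genes tested, so counts by direction within these lists do not describe the pathways. They are given beside the 4.28% of all genes called higher in wmASTRs and the 3.46% called higher in gmASTRs, and nothing about a pathway is read from them. In the IL-6 family list of OSMR, 5 of 33 genes were named, of which 1 was called higher in gmASTRs and 0 higher in wmASTRs by edgeR. *Cntf*, the ciliary neurotrophic factor gene and the 1 gene of the list with an unadjusted p under 0.05 in that direction, was measured at 1.39 ± 1.04 CPM in the gmASTR and 5.31 ± 2.78 CPM in the wmASTR libraries (SD, n = 6 each, edgeR adjusted p = 0.102), and was called by DESeq2 and by edgeR in the filtered table but not by limma-voom. *Il11ra1*, the interleukin 11 receptor gene, was higher in gmASTRs (150 ± 55.8 CPM and 72.7 ± 13.3 CPM, log2FC 0.97, edgeR adjusted p = 0.00121). *Stat3*, the main transducer of OSMR signals, had 449 ± 46.2 CPM and 491 ± 39.5 CPM with a log2FC of -0.19 and was not called (edgeR adjusted p = 0.265). *Clcf1* and *Cish* were not called either, with log2FC of -0.66 and 1.79.

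Of the list of hyaluronan and CD44 partners, 7 of 30 genes were named, of which 3 were called higher in wmASTRs, 1 was called higher in gmASTRs and 3 were not called. Of all genes tested, 4.28% were called higher in wmASTRs and 3.46% higher in gmASTRs. *Spp1*, which encodes the CD44 ligand osteopontin, ranged from 21.6 to 47.1 CPM across the gmASTR libraries and from 107 to 686 CPM across the wmASTR libraries (log2FC -3.07, SE 0.36, edgeR adjusted p = 2.96e-06). The 686 CPM were those of wmASTR replicate 4, the library with the highest summed microglial markers, and without it the mean in wmASTRs was 147 CPM instead of 237 CPM (log2FC -2.37, edgeR adjusted p = 4.98e-08). The hyaluronan-binding proteoglycan gene *Vcan* was higher in wmASTRs as well (log2FC -1.29, SE 0.26, edgeR adjusted p = 0.00182), as was *Fgf2*, a growth factor gene that is not in the filtered table and had 0 counts in 4 gmASTR libraries (log2FC -3.88, SE 0.98, edgeR adjusted p = 0.0124). *Rdx*, which encodes radixin, a link between CD44 and actin, was higher in gmASTRs (log2FC 0.61, SE 0.15, edgeR adjusted p = 0.0125).

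In the sphingosine-1-phosphate list, 2 of 31 genes were named. *S1pr1*, the sister receptor of *S1pr3*, ranged from 0 to 7.92 CPM in gmASTRs and from 9.58 to 47.3 CPM in wmASTRs without overlap, and was called (log2FC -2.17, SE 0.56, edgeR adjusted p = 0.0136), though not by limma-voom or without wmASTR replicate 4 (log2FC -1.71, edgeR adjusted p = 0.0756). *Sphk1*, the kinase that makes the ligand, had 33.8 ± 12.6 CPM and 31.1 ± 4.32 CPM (log2FC 0.05, SE 0.22, edgeR adjusted p = 0.926).

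Among metalloproteinases, the enzymes that TIMP1 inhibits, and related genes, 4 of 32 were named. *Mmp12*, a macrophage elastase gene, was called higher in wmASTRs (8.78 ± 8.29 CPM and 47.3 ± 25.8 CPM, log2FC -2.48, edgeR adjusted p = 0.00288), and the other 3 were not called by edgeR, while DESeq2 called 1 of them higher in gmASTRs. In the lipocalin and iron list 3 of 23 were named. *Tf*, the transferrin gene, reached 2.84 to 9.76 CPM in the gmASTR libraries and 37.6 to 152 CPM in the wmASTR libraries (log2FC -3.71, edgeR adjusted p = 8.01e-08). *Bdh2*, whose product is held to make a mammalian siderophore, was higher in gmASTRs (log2FC 1.04, edgeR adjusted p = 0.000143). *Slc22a17*, the lipocalin 2 receptor gene, was not called (22.2 ± 11.6 CPM and 14.0 ± 5.23 CPM, edgeR adjusted p = 0.254).

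Of the heat shock list, 4 of 29 were named, and those called differed in opposite directions. *Hspa1b*, an inducible HSP70 gene, reached 38.5 to 157 CPM in the gmASTR libraries and 256 to 382 CPM in the wmASTR libraries (log2FC -2.01, SE 0.22, edgeR adjusted p = 1.36e-06). *Hspb8*, a small heat shock protein gene, was higher in gmASTRs (497 ± 180 CPM and 193 ± 25.2 CPM, log2FC 1.29, edgeR adjusted p = 3.96e-05), as was the mitochondrial chaperonin gene *Hspe1* (log2FC 0.47, edgeR adjusted p = 0.0169).

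In the list of chemokines, interferon and NF-kB genes chosen around *Cxcl10*, 6 of 49 were named and 3 were called, all higher in wmASTRs. Of all genes tested, 4.28% were called in that direction, and nothing about the pathway is read from the count. The 3 called were the chemokine genes *Cxcl1* (log2FC -2.44, edgeR adjusted p = 0.000109), *Ccl2* (log2FC -3.66, adjusted p = 2.33e-05) and *Ccl7* (log2FC -3.20, adjusted p = 0.0123). *Ccl7* was not called without wmASTR replicate 4 (edgeR adjusted p = 0.115), by DESeq2 or without gmASTR replicate 5 and wmASTR replicate 4 together, and it is not in the filtered table, so that 2 of the 3 calls were kept there. *Ccl2* ranged from 0 to 6.71 CPM in gmASTRs and 19.6 to 97.0 CPM in wmASTRs. The interferon-induced genes *Ifit3* and *Gbp2* and the adhesion molecule gene *Vcam1* were not called, with log2FC of 0.87, 0.24 and 0.76. Chemokine genes and the summed microglial markers were both higher in the wmASTR libraries, and the part of the latter was not tested.

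**Figure D5:**
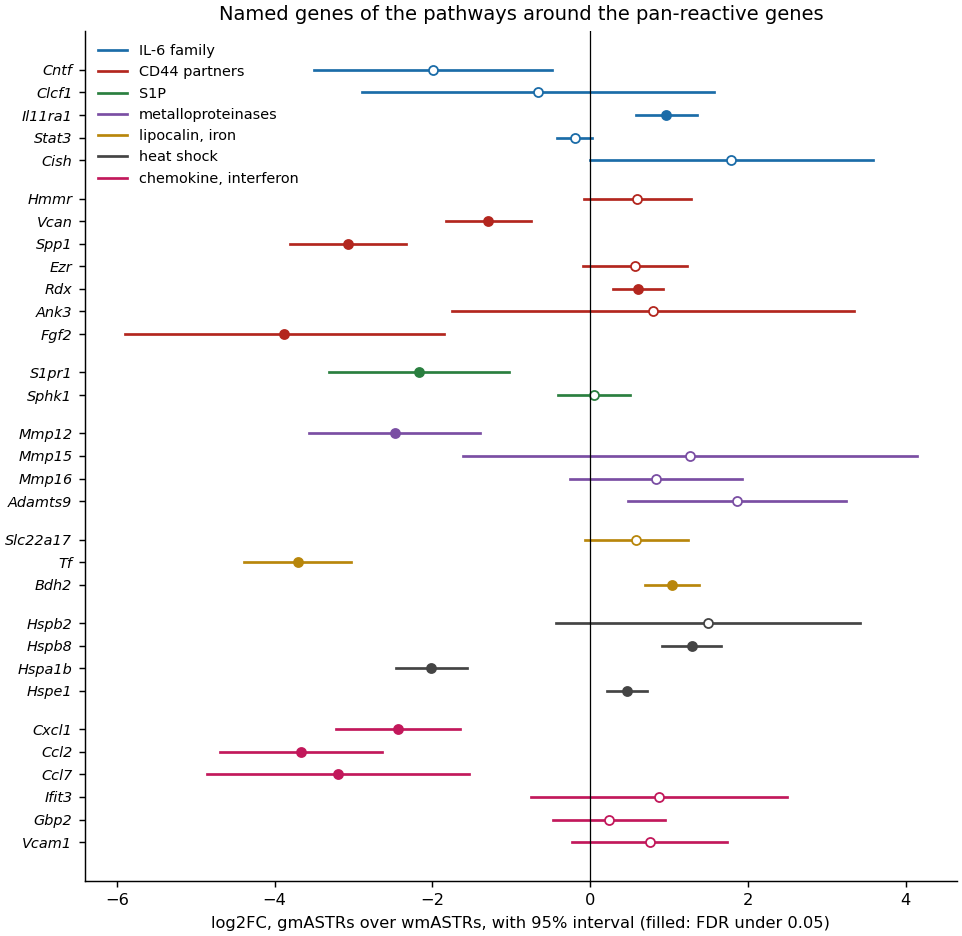
log2FC of gmASTRs over wmASTRs with 95% intervals (horizontal axis) for the named genes of 7 lists around the pan-reactive genes, coloured by list. Filled points are genes with an FDR under 0.05, of which *Fgf2* (-3.88) has the lowest log2FC.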

How the data were processed

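RNA of 12 cultures, 6 for each region, was sequenced at the 3′ end after 20 days, with RIN values above 7.9. Reads were aligned with HISAT (0.1.5), handled with SAMtools (1.2) and counted on Ensembl rat genes with HTSeq (0.6.1p1), without strand, in union mode, with up to 2 mismatches, so that reads of genes overlapping on opposite strands cannot be told apart. The sources disagree on the genome build, and no coordinate of the deposited files is used. The authors deposited read counts that were not normalised, in a table with 17941 genes and in another with 9394 genes, namely those with at least 2 counts in at least 11 libraries. *Lcn2* is only in the former. Whether molecular identifiers were used is not stated, so intervals and floors do not cover duplicate reads.

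The counts of the larger table gave the CPM and entered every test. edgeR (4.0.16) in R (4.3.3) was run with TMM normalisation, the quasi-likelihood test on region without further factors and a prior count of 0.125, with Benjamini-Hochberg adjustment over 15478 genes. Single genes and lists were called at an FDR of 0.05. Exact permutation tests on log2(CPM + 1), two-sided, ran over 924 divisions. Alternatives used DESeq2 (1.42.0), limma-voom (3.58.1), other size factors, the filtered table, filterByExpr, a replicate block and left-out libraries. Leaving wmASTR replicate 4 out for genes other than the members was chosen after seeing the data. The edgeR procedure was tested on simulated data, where false calls made up more of the calls than the nominal FDR. Python (3.11.15), numpy (2.4.6), pandas (2.3.3), scipy (1.17.1) and matplotlib (3.10.9) were used for tables, tests and figures.

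The members, lists and the rule for named genes were chosen with earlier results of these data known. The rule took the members, the other pan-reactive genes, up to 4 called genes with the smallest FDR in each list, a set of direct partners, and for members with at least 20 CPM the 3 named genes of most similar course. *Cntf*, *Clcf1*, *Cish*, *Ifit3*, *Gbp2* and *Vcam1*, and the marker genes *Aqp4*, *Gja1*, *Mfge8*, *Aldoc*, *Fgfr3*, *Ttr* and *Cldn11*, were named outside this rule after their values were seen. Names came from the supplementary workbook of the study, 2010 beside an identifier and 60, among them the members, by matching 12 CPM values to the count table within 0.05 on the log2 scale, so 2070 genes had a name. Cultures were independent preparations per the study. A gene of the IL-6 family list was left out of the list and is not reported here.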

Additional observations from a re-analysis of the deposited data

Results flagged for a closer look

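*Lcn2* in wmASTR replicate 4 was at 21.8 CPM (124 counts), far from the other wmASTR libraries, of which the nearest was at 6.53 CPM. *Gfap* in the same library was at 10.6 CPM (60 counts), with the nearest other wmASTR library at 2.58 CPM. Both exceeded Dixon's 95% critical value for 6 libraries, among 20 groups tested, and chance marks about 1 in 20 groups.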

How the results depend on the processing

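The sign of the log2FC was kept for all 6 genes under the alternatives run. *Lcn2* lost its call without gmASTR replicate 5 and wmASTR replicate 4 together (log2FC -2.71, edgeR adjusted p = 0.200), and its log2FC ran from -4.53 to -2.32 with 1 library left out. It is not in the filtered table and was removed by filterByExpr, so these give no value. *S1pr3* passed the threshold with DESeq2 (log2FC -1.0, adjusted p = 0.0278), in the filtered table (-0.99, edgeR adjusted p = 0.0421) and with filterByExpr (-0.99, edgeR adjusted p = 0.0419), where fewer genes were tested in the last 2, and ran from -1.15 to -0.78 with 1 library left out. The 647 genes called at an FDR of 0.01 became 999 without gmASTR replicate 5 and 488 to 623 with any 1 of the other libraries left out, and the cause was not tested. Of 128 values of list counts, 11 moved by over 1.5 times, 7 of them in the list of other pan-reactive genes, where the 1 gene called higher in wmASTRs became 0 in the filtered tables, which lack *Gfap*, and 2 with DESeq2, limma-voom, the block or 2 libraries left out.

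With the replicate number as a block, *Timp1* (-0.67), *Hsbp1* (-0.98) and *Lcn2* (-4.13, adjusted p = 0.0323) were called and *S1pr3* (-0.94, adjusted p = 0.116) was not, so that the block changed no member's call, and 1301 genes were called at 0.05 (edgeR). Exact permutation by swaps within the number gave p = 0.0625 for *S1pr3* and a larger p for *Cd44*, where 0.03125 is the smallest possible. Deviations of same-numbered libraries correlated at -0.0324 to 0.0112, and the labels do not say what the number marks. *Lcn2* and *Osmr* rest on the fewest counts of the 6 genes, at most 124 and 35 a library.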
